A study of Mus musculus with 10 samples.

Results

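Promoter H3K27ac found only in cells with non-functional SCL was examined in ChIP-Rx peak lists from mCherry-positive cells sorted from day 4 mouse embryoid bodies (EBs). The members were chosen by their H3K27ac call. They are the peaks of the Delta H3K27ac list that come within 2500 bp of a transcription start site (TSS) of a protein-coding gene and that no peak of the WT H3K27ac list overlaps by 1 bp. Of 70826 peaks in 8 lists, 5269 were Delta H3K27ac peaks and 4509 of these lay at promoters. Of the 4509, 1370 had no WT counterpart (30.4%, 95% Wilson interval 29.1 to 31.7) and are called Delta-only below. The other 3139 are called shared. The Poisson interval of the 1370 is 1298 to 1445.

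WT cells came from *Scl:mCherry* EBs, in which the reporter leaves SCL functional. Delta cells came from *Scl* Δ/Δ:mCherry EBs, labelled Scl d/d, in which the basic helix-loop-helix (bHLH) domain of SCL is missing. Each genotype is 1 edited ES cell line. The WT line came from J1 ES cells and is heterozygous for mCherry at *Scl* (*Tal1*), and the Delta line was made from it by deleting the bHLH domain on both alleles. In both, the sort takes cells in which the reporter is on. The strain is labelled C57Bl/6 X Sv129 in 3 libraries, and the last number rises by 1 from library to library in the others. There was 1 library per mark and genotype, for H3K4me3, H3K27me3, H3K27ac and H2AK119ub, and 1 input per genotype. No value below therefore has a replicate check. Intervals cover counting error only, and neighbouring peaks are not independent. A peak cannot tell the share of cells with a mark from its level per cell, and a change in the make-up of the sorted cells cannot be told apart from a change within them.

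SCL is a bHLH transcription factor that is needed for blood specification and works in complexes with LMO2, LDB1, GATA factors and E proteins. H3K27ac is laid down by acetyltransferases such as P300 and CBP at active promoters and enhancers. H3K4me3 marks promoters with a CpG-rich sequence. The Polycomb complexes PRC2 and PRC1 make H3K27me3 and H2AK119ub at silenced developmental genes, and an H3K27 residue cannot be acetylated and methylated at the same time.

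The sequence under Delta-only peaks is shown first, because it places most of them at CpG-rich promoters. The peaks of highest fold enrichment were taken, and *Runx1* and *Hand1* were added after their values were seen. For each, the longest stretch outside annotated UTRs within 300 bp centred on the midpoint is given, from the plus strand of NCBIM37 (mm9). The sixth peak by fold enrichment, at *Chkb*, had less than 50 such bases. Capitals mark the motifs searched for, which are named after the sequences.

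Secisbp2, chr13:51747154-51747389: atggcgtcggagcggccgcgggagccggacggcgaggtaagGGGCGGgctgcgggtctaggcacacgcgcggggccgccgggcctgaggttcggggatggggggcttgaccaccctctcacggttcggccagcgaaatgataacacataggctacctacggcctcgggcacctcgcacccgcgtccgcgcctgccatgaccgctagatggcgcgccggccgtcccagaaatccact
Nup85, chr11:115425525-115425747: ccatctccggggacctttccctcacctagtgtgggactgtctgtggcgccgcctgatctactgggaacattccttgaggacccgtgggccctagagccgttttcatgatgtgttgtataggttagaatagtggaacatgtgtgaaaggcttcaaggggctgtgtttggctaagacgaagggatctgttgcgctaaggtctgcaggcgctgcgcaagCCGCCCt
Mrps6 and Slc5a3, chr16:92058726-92058886: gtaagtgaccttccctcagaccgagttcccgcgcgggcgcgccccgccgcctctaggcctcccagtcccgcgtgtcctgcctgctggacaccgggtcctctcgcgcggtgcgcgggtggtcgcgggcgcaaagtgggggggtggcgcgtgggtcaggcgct
Psmg3, chr5:140302530-140302675: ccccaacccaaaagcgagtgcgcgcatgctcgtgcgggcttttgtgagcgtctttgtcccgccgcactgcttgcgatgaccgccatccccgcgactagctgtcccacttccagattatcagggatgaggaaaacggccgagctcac
Zfp821, chr8:112229764-112229857: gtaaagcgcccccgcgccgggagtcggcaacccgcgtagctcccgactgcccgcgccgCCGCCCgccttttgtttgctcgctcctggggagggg
Runx1, chr16:92698310-92698609: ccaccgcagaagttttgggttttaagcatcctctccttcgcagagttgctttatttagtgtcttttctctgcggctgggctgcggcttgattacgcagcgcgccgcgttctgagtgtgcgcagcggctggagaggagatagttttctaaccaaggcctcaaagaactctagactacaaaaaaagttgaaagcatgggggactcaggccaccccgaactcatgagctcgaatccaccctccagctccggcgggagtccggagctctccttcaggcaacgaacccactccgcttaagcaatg
Hand1, chr11:57646485-57646784: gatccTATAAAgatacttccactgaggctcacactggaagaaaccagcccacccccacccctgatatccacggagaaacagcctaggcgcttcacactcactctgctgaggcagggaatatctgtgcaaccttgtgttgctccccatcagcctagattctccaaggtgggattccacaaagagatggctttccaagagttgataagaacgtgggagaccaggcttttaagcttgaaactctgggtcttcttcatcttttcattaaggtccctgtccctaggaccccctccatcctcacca

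The first 5 stretches had a GC content of 55.6% to 74.5%, with 10 to 31 CpGs in 94 to 236 bases. The *Runx1* stretch had 18 CpGs in 300 bases and none of the motifs. The *Hand1* stretch was the poorest in CpG, with 3 in 300 bases, and held 1 TATA box. Over all 1370 Delta-only peaks the median GC content of the 300 bp window was 66.0% (quartiles 59.1 to 72.3). It was 69.7% (63.7 to 74.7) at shared peaks, 65.0% (57.6 to 70.7) at the 748 promoter peaks of the WT list without a Delta counterpart (WT-only), and 58.7% around 45957 protein-coding TSSs. A GC content of at least 50% with a CpG observed over expected ratio of at least 0.6 was found in 76.8% of Delta-only windows (74.5 to 78.9), 91.5% of shared windows (90.5 to 92.4) and 48.1% of TSS windows. Delta-only peaks were thus less CpG-rich than shared peaks, and much like WT-only peaks, of which 561 of 748 passed both limits (71.8% to 78.0%).

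The 8 motifs were searched on both strands by their letters. The GC box, GGGCGG, was in 58.8% of Delta-only windows and 67.9% of shared windows, a difference of -9.06 points (-12.1 to -5.99). The CCAAT box was in 20.7% and 17.1% (3.58 points, 1.11 to 6.15). The E-box CAGATG, of the class that bHLH factors bind, was in 9.56% and 6.94% (2.62 points, 0.891 to 4.49). WT-only windows held these 3 motifs in 55.1% (51.5 to 58.6), 19.3% (16.6 to 22.2) and 8.96% (7.11 to 11.2), so the values of Delta-only windows were close to those of peaks found in WT only. The GC content also differed between these sets, and its part in the motif shares was not tested. The GATA motif, AGATAA, was in 3.50% of Delta-only windows (2.65 to 4.61) and 2.71% of shared ones (2.20 to 3.34), against 6.15% of WT-only windows (4.64 to 8.11). TSS windows held it in 8.20% and the CAGATG E-box in 14.5%. The intervals of the difference between Delta-only and shared windows included 0 for the ETS motif CCGGAAG (11.6% and 13.6%), for the E-box CACGTG (6.57% and 7.77%), for the TATA box TATAAA (2.85% and 2.64%), for the cyclic AMP element TGACGTCA (1.46% and 1.88%) and for the GATA motif.

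Delta-only peaks were weaker and shorter than shared ones. Fold enrichment over the local background ran from 3.06 to 7.01, with a median of 4.15 against 4.56 at shared peaks, and the median length was 371 bp against 625 bp. The −log10 q that the peak caller gave, a measure of confidence in the call, had a median of 2.44 against 3.83, and was at least 3 in 30.2% of Delta-only peaks and 70.1% of shared ones. Read by strength, 411 of 625 Delta promoter peaks with a −log10 q under 2 were Delta-only (65.8%), and 4 of 127 with a −log10 q of 8 or more (3.15%). These values belong to the contrast that chose the members and are given as a description. They also mean that many members lie close to the limit of the caller, where a WT region just under its threshold is not listed.

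**Figure D1:**
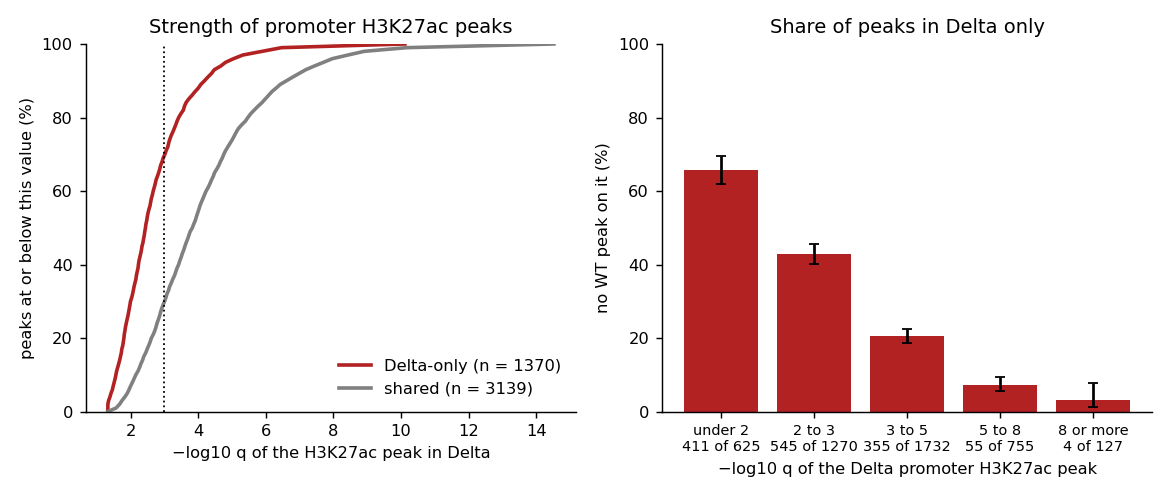
Left, share of promoter H3K27ac peaks (%) at or below each −log10 q in Delta, for 1370 Delta-only and 3139 shared peaks; the dotted line marks 3. Right, share of Delta promoter H3K27ac peaks with no WT peak on them (%), by −log10 q, with 95% Wilson intervals and peak numbers; the share falls from 65.8% under 2 to 3.15% at 8 or more.

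Most members lay far from any listed WT H3K27ac peak, although WT regions under the caller's threshold are not listed. The nearest listed one was over 10000 bp away for 1193 members (87.1%), and within 1000 bp for 68 (4.96%). The rule used this same WT list, so the distances are given as a description. A gene at the peak had another WT H3K27ac peak in its window in 120 cases (8.76%). At the limit of the rule, the peak at *Atxn10* touched a WT peak with 0 bp between them, that at *Cflar* was 1 bp away and that at *Arhgef2* 7 bp. Just outside it, the shared peaks at *Pcbd2*, *Prdm6* and *Ints3* overlapped a WT peak by 2, 7 and 18 bp. By distance to a TSS, the peaks at *Pcdhgc5* and *Msx2* were just inside, at 2431 and 2426 bp, and the next peaks outside were at 2505 and 2512 bp.

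Delta-only peaks sat at start sites, mostly just downstream. A TSS lay within 250 bp of 83.5% of them (81.4 to 85.4) and of 93.9% of shared peaks (93.1 to 94.7), and 35.1% and 53.2% contained one. The midpoint lay downstream of the nearest TSS in 72.0% of members and 74.6% of shared peaks. Over all peaks of each set, upstream ones included, the median position was 181 and 165 bp downstream. It fell in an intron in 42.7% of members, in a UTR in 22.5%, in coding sequence in 15.1%, in another exon in 2.04% and outside genes in 17.7%. Genes on both strands had a TSS within 2500 bp of 14.9% of members and 16.9% of shared peaks.

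The 6 members of highest fold enrichment lay at genes of varied functions. *Secisbp2*, which encodes a factor for selenoprotein synthesis, had a fold enrichment of 7.01. *Nup85*, a nuclear pore gene, had 6.93. The peak shared by *Mrps6*, of the mitochondrial ribosome, and *Slc5a3*, an inositol transporter gene, had 6.69, *Psmg3*, of proteasome assembly, 6.66, *Zfp821*, a zinc finger gene, 6.60, and *Chkb*, a choline kinase gene, 6.58. All 6 carried H3K4me3 in both genotypes, and *Zfp821* lay in a long H3K27me3 peak in both, of 7371 bp for WT and 6487 bp for Delta. The longest members lay at the promoter of *Ctbp2*, a corepressor gene, where 1 transcript of *Fgfr2* is also annotated to start (2550 bp), at *Ptch1*, the hedgehog receptor gene (2244 bp), at *Gm10277* (2065 bp) and at *Sox11*, a transcription factor gene (1878 bp). The *Gm10277* peak overlapped none of the other lists.

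Next, the other 6 lists were read at these peaks. H3K4me3 was present at nearly all of them, and in WT as well, where no H3K27ac was called. The WT list overlapped 95.7% of Delta-only peaks (94.5 to 96.6) and the Delta list 96.5% (95.4 to 97.3), and each overlapped 99.5% of shared peaks. The differences from shared peaks were -3.83 points (-5.05 to -2.83) in WT and -3.03 points (-4.15 to -2.12) in Delta. Of the 1370, 1306 carried H3K4me3 in both lists, 5 in WT alone, 16 in Delta alone and 43 in neither. The 43 lay farther from a TSS, at a median of 731 bp against 65.0 bp for the other 1327. They included peaks at *Zmynd8* (2035 bp from the TSS), *Lctl* (1935 bp) and *Lgals3*, which encodes galectin 3 (417 bp).

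Where both genotypes had an H3K4me3 peak, its fold enrichment was compared as Delta over WT. The median ratio was 0.961 at Delta-only peaks (quartiles 0.847 to 1.09), 0.854 at shared peaks (0.758 to 0.962) and 0.787 at WT-only peaks (0.691 to 0.887). The ratio was above 1 at 523 of 1306 Delta-only peaks (40.0%), 594 of 3119 shared peaks (19.0%) and 61 of 699 WT-only peaks (8.73%). The order was the same among peaks with a −log10 q under 3, with medians of 0.952, 0.847 and 0.810. H3K4me3 enrichment was therefore ordered like the H3K27ac calls. All Delta lists were called against the same Delta input and all WT lists against the same WT input, so the lists of a genotype share their background, whose part in this order was not tested.

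**Figure D2:**
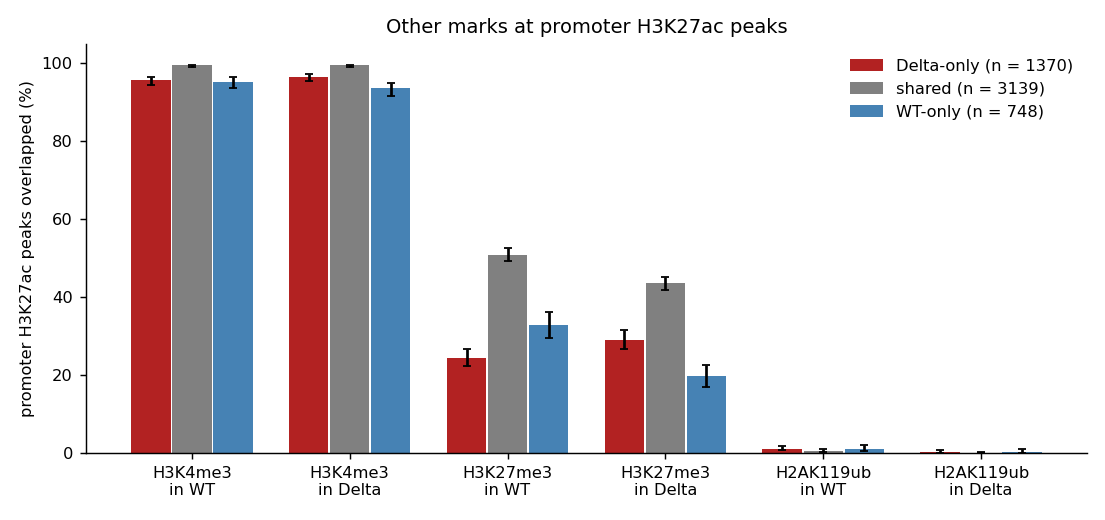
Share (%) of Delta-only (n = 1370), shared (n = 3139) and WT-only (n = 748) promoter H3K27ac peaks overlapped by each of the 6 other peak lists, with 95% Wilson intervals. H3K4me3 was near 100% in all sets, H3K27me3 overlapped 24.5% of Delta-only and 51.0% of shared peaks in WT, and H2AK119ub overlapped few peaks.

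H3K27me3 was less frequent at Delta-only than at shared peaks, as it was at WT-only peaks. In WT it overlapped 335 of 1370 members (24.5%, 22.3 to 26.8) and 1602 of 3139 shared peaks (51.0%, 49.3 to 52.8), a difference of -26.6 points (-29.4 to -23.7). In Delta it overlapped 400 members (29.2%, 26.9 to 31.7) and 1368 shared peaks (43.6%, 41.9 to 45.3), a difference of -14.4 points (-17.3 to -11.4). Of 748 WT-only peaks it overlapped 32.9% in WT (29.6 to 36.3) and 19.8% in Delta (17.1 to 22.8), so Delta-only peaks were lower by -8.44 points in WT (-12.5 to -4.41) and higher by 9.41 points in Delta (5.60 to 13.1). Longer peaks have more chances of an overlap. Among peaks with a −log10 q under 3, and in a window of 500 bp about the midpoint, the difference was -16.6 points (-20.7 to -12.4) in WT and -3.48 points (-7.55 to 0.611) in Delta. In the 500 bp window alone the difference in Delta was -11.9 points (-14.8 to -8.94), and among peaks with a −log10 q of at least 3 it was -16.9 points (-21.6 to -11.8), so it was seen in strong peaks and was small in weak ones. H3K27me3 without H3K4me3 was found at 0 of 1370 members in either genotype: every H3K27me3 call at a member lay on a promoter that also had H3K4me3. This was not particular to the members. The number was 0 of 3139 at shared peaks in either genotype, and at WT-only peaks 0 of 748 in WT and 1 in Delta.

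Between genotypes, H3K27me3 at the members was called more often in Delta, where H3K27ac was also called. Both lists overlapped 197 members, WT alone 138, Delta alone 203 and neither 832. The share in Delta exceeded that in WT by 4.74 points (2.11 to 7.37), whereas at shared peaks it was lower, by -7.45 points, and at WT-only peaks by -13.1 points. Of the peaks in only 1 H3K27me3 list, the Delta list held 59.5% at Delta-only peaks (54.2 to 64.6), 38.5% at shared peaks (35.6 to 41.5) and 24.2% at WT-only peaks (18.7 to 30.8). Among members with a −log10 q under 3 this share was 56.3% (49.9 to 62.6), against 33.6% (28.5 to 39.0) at shared peaks, and with at least 3 it was 66.1% and 40.6%. Delta minus WT was 3.03 points (-0.0630 to 6.13) among members with a −log10 q under 3, and 8.70 points (3.76 to 13.6) with at least 3. Of genes with H3K27ac in Delta alone and H3K27me3 in 1 list, 53.9% had H3K27me3 in Delta (48.5 to 59.2), against 41.1% over all genes. H3K27me3 calls at the members thus leaned to Delta by few points, and the interval among weak members included 0. As for H3K4me3, the shared input of each genotype moves with this result, and its part was not tested.

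**Figure D3:**
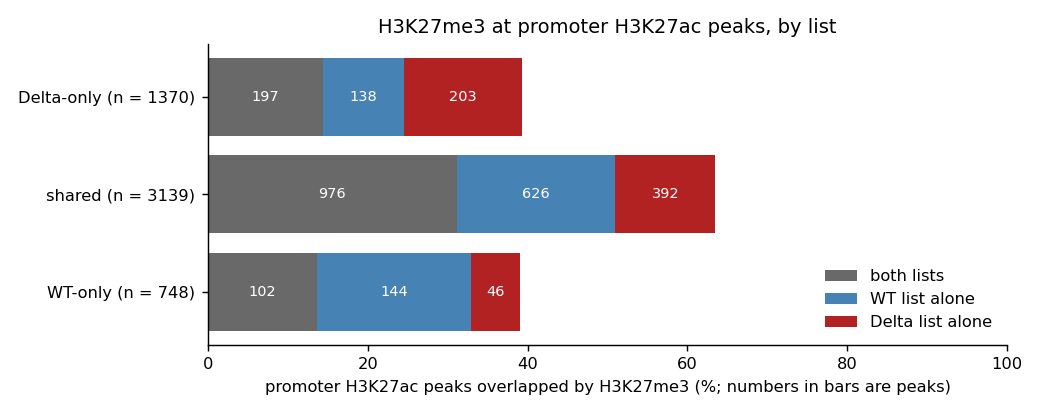
Share (%) of Delta-only, shared and WT-only promoter H3K27ac peaks overlapped by H3K27me3 in both lists, in the WT list alone and in the Delta list alone; numbers in the bars are peaks. Delta alone exceeds WT alone at Delta-only peaks (203 and 138) and is below it at shared (392 and 626) and WT-only peaks (46 and 144).

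Most of the one-sided H3K27me3 calls were short. At members with H3K27me3 in Delta alone its peaks had a median length of 459 bp (quartiles 317 to 853), and at those with WT alone 394 bp (284 to 741). Examples with Delta alone were *Mrps6* and *Slc5a3* (468 bp, fold enrichment 4.69), *Chkb* (232 bp, 3.74), *Dhx30*, an RNA helicase gene (267 bp, 4.36), and *Robo1*, a guidance receptor gene (675 bp, 3.02). With WT alone, the members of highest H3K27ac enrichment were at *Dynll1*, *2410002I01Rik*, *Ttc39b*, *Adat1*, *Trip13* and *Drap1*, with H3K27me3 peaks of 219 to 880 bp. Where both lists had one, the median was 879 bp in WT and 944 bp in Delta.

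A small number of members lay inside long H3K27me3 peaks, as found over Polycomb-silenced developmental genes. An H3K27me3 peak of at least 5000 bp in either list overlapped 18 Delta-only peaks (1.31%, 0.833 to 2.07), 9 shared peaks (0.287%, 0.151 to 0.544) and 9 WT-only peaks (1.20%, 0.634 to 2.27). This limit was chosen after the data were seen. Among the 18 were peaks at *Foxf1a*, *Hand1*, *Tbx20*, *Atoh8*, *Prox1*, *Gli2*, *Fosb* and *Nfil3*, which encode transcription factors, at the receptor genes *Fzd1*, *Fzd3* and *Tgfbr1*, and at *Zfp821*, *Sertad4*, *Larp1b*, *Bcl2l11*, *Siah2* and *Eif4g3*. Within 10000 bp of the midpoint, H3K27me3 peaks covered more bases in WT at 10 of the 18 and in Delta at 8. H3K4me3 peaks covered more bases in Delta at 10 and in WT at 8.

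The 3 longest of these in WT were at regulators of mesoderm, and their H3K27me3 peaks were shorter in Delta. A choice by length in WT favours a shorter peak in Delta. At *Foxf1a*, a forkhead gene of lateral mesoderm, the H3K27me3 peak was 25434 bp long in WT and 20840 bp in Delta, while H3K4me3 peaks within 10000 bp covered 4850 bp in WT and 9663 bp in Delta. At *Hand1*, which encodes a bHLH factor of the heart and extraembryonic mesoderm, the H3K27me3 peak over the member was 15101 bp in WT and 6112 bp in Delta, with 15844 and 13771 bp covered within 10000 bp. At *Tbx20*, a cardiac T-box gene, it was 13374 and 4550 bp, with 13374 and 9422 bp covered. H3K4me3 peaks within 10000 bp of the *Tbx20* midpoint covered 6273 bp in WT and 5736 bp in Delta. *Prox1*, a homeobox gene of lymphatic endothelium, went the other way, with 8717 bp for WT against 11449 bp for Delta. At *Gli2*, a hedgehog effector gene, the lengths were 6487 and 7432 bp. At *Fosb* the H3K27me3 peak over the member was 964 bp in WT and 8516 bp in Delta. Within 10000 bp of the *Fosb* midpoint, H3K27me3 peaks covered 10124 and 9308 bp.

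At *Hand1* all 4 marks differed between the lists. Its Delta-only H3K27ac peak, chr11:57645990-57647280, was 1291 bp long with a fold enrichment of 4.17. On the same bases the H3K4me3 peak was 295 bp long with a fold enrichment of 3.10 in WT, and 6624 bp long with 7.59 in Delta. Within 10000 bp of the midpoint H3K4me3 peaks covered 4038 bp in WT and 7040 bp in Delta, so the short WT peak was not the only one near the gene. H3K27me3 had a fold enrichment of 5.88 in WT and 4.39 in Delta, and H2AK119ub was called in WT alone (1048 bp, 3.39).

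**Figure D4:**
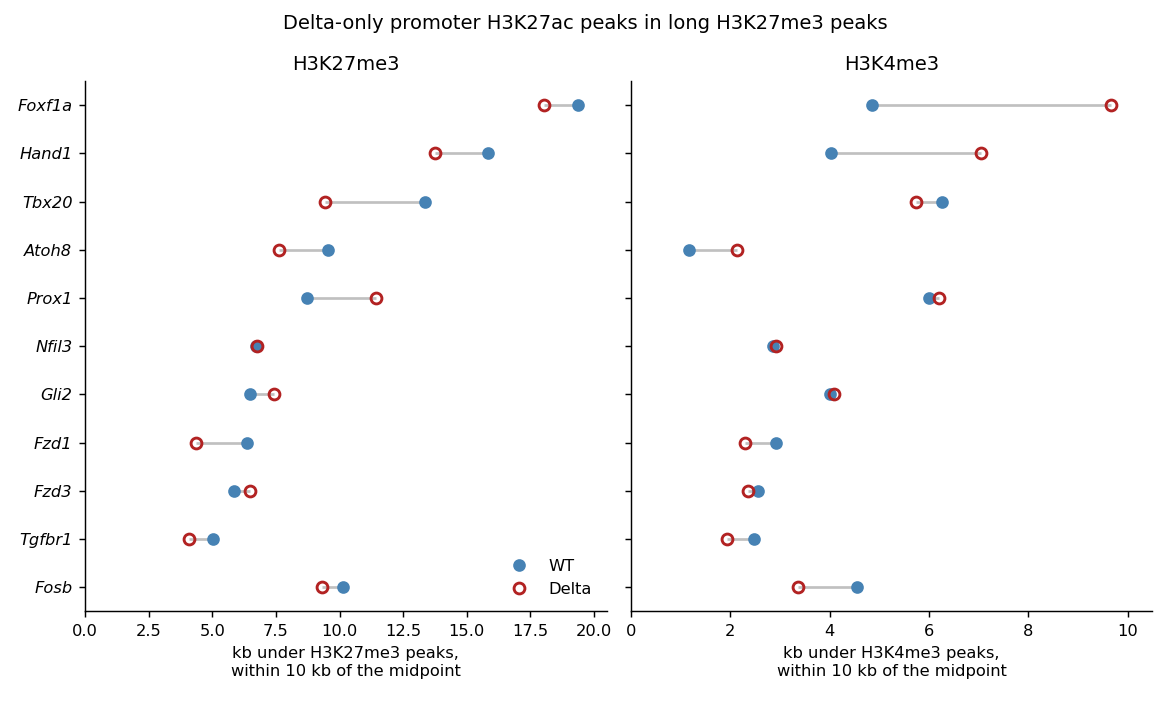
Length (kb) under H3K27me3 peaks (left) and H3K4me3 peaks (right) within 10 kb of the midpoint of the Delta-only promoter H3K27ac peaks at transcription factor and receptor genes that lie in an H3K27me3 peak of at least 5 kb, in WT (filled) and Delta (open); 1 library per point. *Foxf1a* and *Hand1* have more H3K4me3 and less H3K27me3 length in Delta than in WT, and *Tbx20* has less of both.

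H2AK119ub overlapped few members. It was called at 17 in WT (1.24%, 0.776 to 1.98) and at 4 in Delta (0.292%, 0.114 to 0.748), and the 4 were among the 17. The whole H2AK119ub list held 4922 peaks in WT and 2388 in Delta. The difference from shared peaks was 0.572 points in WT (-0.0109 to 1.34) and 0.133 points in Delta (-0.145 to 0.598). Members with H2AK119ub in WT included *Pkdcc*, a secreted kinase gene (373 bp), *Igf2r*, the imprinted receptor gene (544 bp), *Cstad* (458 bp) and *Ptch1* (985 bp). None of these was called in Delta.

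The members were then read by gene. Of 22359 protein-coding genes, 1555 had a Delta-only peak, and 1423 of them had no WT H3K27ac peak in their window. In all, 1424 genes (6.37%) had H3K27ac in Delta and not in WT, 768 (3.43%) in WT and not in Delta, and 3672 (16.4%) in both. Of the 2192 genes in 1 list, 65.0% were in Delta (62.9 to 66.9). The Delta H3K27ac list was also the longer one, with 4509 promoter peaks against 3892 in the WT list. Of the 1424, 98.6% had H3K4me3 in WT and 98.8% in Delta, against 60.7% and 60.3% of all genes. H3K27me3 was at 34.9% of them in WT and 36.7% in Delta, near the 34.8% and 32.7% of all genes, and H2AK119ub at 6.60% and 2.32%, below the 9.21% and 5.00% of all genes. H3K27me3 was in Delta and not in WT at 12.6% of them (10.9 to 14.4), against 4.91% of all genes, and in WT and not in Delta at 10.7% (9.24 to 12.5), against 7.04%. At genes with H3K27ac in both genotypes these shares were 12.0% and 19.7%.

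Gene lists were read against those backgrounds, and no list was tested. The blood list was the one in which H3K27ac in WT alone was most frequent. Of 23 matched blood and haematopoietic genes, most of them for transcription factors, 1 had H3K27ac in Delta alone (4.35%) and 10 in WT alone (43.5%). Over all protein-coding genes these shares were 6.37% and 3.43%. The 10 included *Tal1*, *Lmo2*, *Lyl1*, *Gata2*, *Fli1* and *Erg*. The 1 in Delta alone was *Runx1*, a core factor of definitive haematopoiesis. Its member, chr16:92698100-92698820, lay in an intron 527 bp from the nearest TSS with a fold enrichment of 4.03, while its H3K4me3 peak went from 6428 bp and a fold enrichment of 7.97 in WT to 3517 bp and 4.57 in Delta. No H3K27me3 or H2AK119ub peak overlapped it.

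Cardiac and endothelial genes with H3K27ac in Delta alone made up 12.0% of either list, against 6.37% of all protein-coding genes, on 3 genes each. Of all genes 60.7% had H3K4me3 in WT, against 98.6% of those with H3K27ac in Delta alone. The 6.37% is therefore a low background for promoters with H3K4me3. Of 25 cardiac genes, 3 had H3K27ac in Delta alone (*Gata6*, *Hand1* and *Tbx20*), 0 in WT alone and 1, *Tbx3*, in both, although *Tbx3* also held members. The *Tbx20* member was 164 bp long with a fold enrichment of 4.24. Of 25 endothelial genes, *Eng*, *Notch1* and *Nrp1* were in Delta alone, with fold enrichments of 3.94, 3.84 and 3.42, and *Egfl7* and *Ets2* in WT alone. The −log10 q of the *Eng*, *Notch1* and *Nrp1* peaks was 1.94, 2.10 and 1.78, near the lower end of the list. For *Notch1*, 1 of 4 annotated TSSs lay within 2500 bp of a Delta peak. *Eng* encodes the co-receptor endoglin and *Nrp1* the VEGF co-receptor neuropilin 1. H3K27ac was at 0 of 22 paraxial and presomitic genes and 0 of 21 neural genes in either genotype. *Mixl1*, a homeobox gene of the primitive streak, was the 1 of 19 streak genes in Delta alone. Its peak had a fold enrichment of 3.25 and a −log10 q of 1.59. The H3K27me3 peak there was 1397 bp long in WT, with none in Delta.

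Of 52 genes of the Wnt, BMP, FGF and Notch pathways, 12 had H3K27ac in Delta alone (23.1%), 3 in WT alone (5.77%) and 19 in both. Over all protein-coding genes these shares were 6.37% in Delta alone, 3.43% in WT alone and 16.4% in both. H3K27ac was in neither genotype at 18 of the 52 genes and at 16495 of all 22359. The part of this difference in the Delta-alone share was not tested. Among ligands and receptors, those in Delta alone were *Wnt5b*, *Fzd1*, *Fzd10*, *Lrp5*, *Tgfbr1*, *Fgfr1* and *Fgfr2*. The *Fgfr2* call rests on the peak at *Ctbp2*: 1 of 7 protein-coding TSSs annotated for *Fgfr2* lies there, 2904711 bp from the nearest other one, and without it 11 of the 52 genes are left (21.2%). Among intracellular effectors and targets they were *Axin2*, *Lef1*, *Tcf7l1*, *Smad3* and *Hey1*. The strongest was *Hey1*, a Notch target gene, with a fold enrichment of 5.86 over 1430 bp and H3K27me3 in both genotypes (2079 and 2161 bp in WT and Delta). *Tgfbr1*, a TGF-beta receptor gene, followed with 5.28. At *Lef1*, which encodes a nuclear effector of Wnt signalling, the member was 1434 bp long with 4.34, and the H3K27me3 peak was 4890 bp in WT and 1153 bp in Delta. *Axin2*, a Wnt target gene, had 4.36, and *Tcf7l1*, a Wnt effector gene, 4.23, with no H3K27me3 in either genotype. The 3 in WT alone were *Ctnnb1*, *Bmp2* and *Spry2*. *Smad7*, an inhibitory Smad gene, held a member and had H3K27ac in both genotypes.

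Of 22 pluripotency and epiblast genes, *Klf4*, *Lin28a* and *Dnmt3a* were in Delta alone (13.6%), with fold enrichments of 4.54, 4.43 and 4.53. *Klf2* was in WT alone (4.55%). These shares were 6.37% and 3.43% over all protein-coding genes. For *Dnmt3a*, 2 of 13 annotated TSSs lay within 2500 bp of a Delta peak. Of 18 endoderm genes, *Foxa3*, *Krt18* and *Gata6* were in Delta alone (16.7%, against 6.37% of all protein-coding genes), and 0 in WT alone. The −log10 q of their peaks was 1.47, 1.62 and 2.54. The *Krt18* peak, 1146 bp from the TSS, overlapped no H3K4me3 peak, and the *Gata6* peak lay 1629 bp from the TSS. The *Foxa3* peak is also at *Sympk*, and cannot be assigned to 1 of them. *Gata6* is in both the cardiac and the endoderm list.

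Among chromatin genes most calls were in both genotypes, as over all protein-coding genes. Of those, 6.37% had H3K27ac in Delta alone, 3.43% in WT alone and 16.4% in both. Of 33 Polycomb subunit genes, *Yaf2* and *Rbbp7* were in Delta alone (6.06%), *Pcgf5* and *L3mbtl2* in WT alone (6.06%) and 16 in both. The *Rbbp7* peak had a −log10 q of 1.33, and no H3K4me3 peak overlapped it. Members also lay at *Kdm2b* and *Pcgf2*, which had H3K27ac within 2500 bp of a TSS in both genotypes. Of 31 acetylation and corepressor genes, 4 were in Delta alone (12.9%), among them *Sin3a*, *Rcor1* and *Kat2a*, whose peak is also at *Hspb9*. *Sin3b* and *Cbfa2t3* were in WT alone (6.45%) and 18 in both.

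Next, genes of the cell cycle and of ribosomes were read. Of all protein-coding genes, 6.37% had H3K27ac in Delta alone, 3.43% in WT alone and 16.4% in both. Of 42 cell cycle and DNA replication genes, 5 were in Delta alone (11.9%), 5 in WT alone (11.9%) and 25 in both. Those in Delta alone were *Ccna2*, *Ccnd1*, *Ccnd3*, *Cdk6* and *E2f4*, whose peak is also at *Exoc3l*. Of 75 mitochondrial ribosomal protein genes, 16 were in Delta alone (21.3%), 15 in WT alone (20.0%) and 20 in both. Of the 16, 10 had a peak at no other gene (13.3% of the list), and the others shared theirs with a neighbour, such as *Mrpl40* with *Hira*. Of 76 cytosolic ribosomal protein genes, 67 were in both, and *Rpl36a*, *Rps12* and *Rps9* in Delta alone (3.95%).

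**Figure D5:**
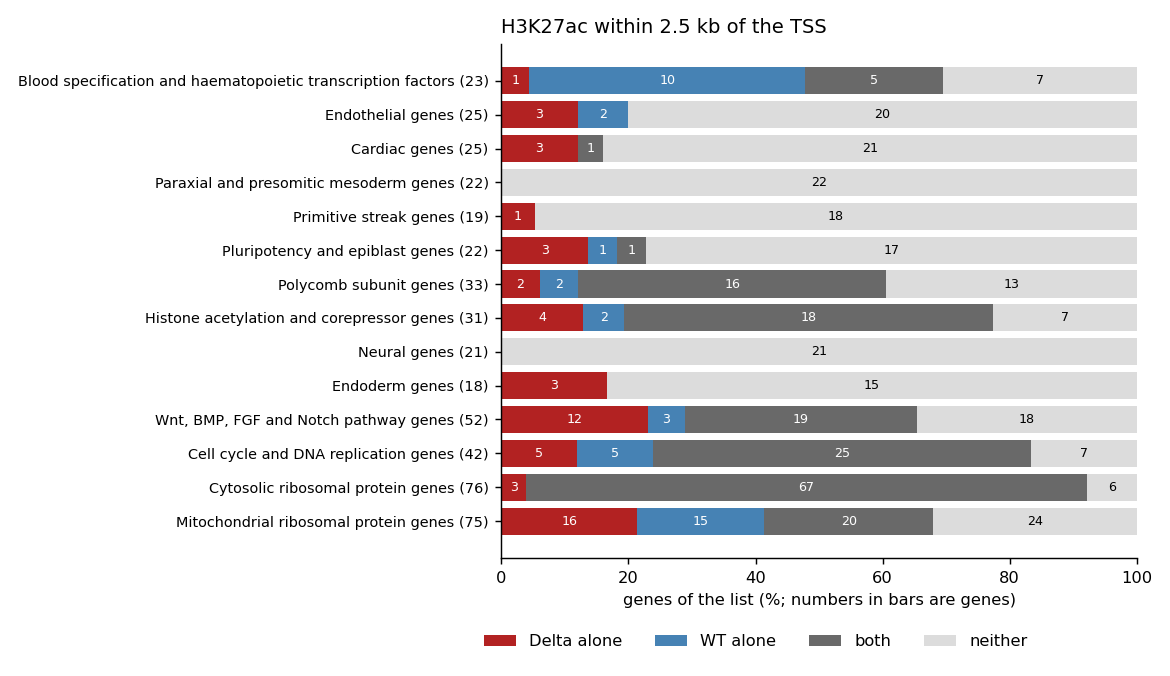
Share (%) of the genes of each list, with the number matched in brackets, that had an H3K27ac peak within 2.5 kb of the TSS in Delta alone, in WT alone, in both or in neither; numbers in the bars are genes. The blood list has 10 genes in WT alone and 1 in Delta alone, and the Wnt, BMP, FGF and Notch list 3 and 12.

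The labelled cell state was read at 6 markers of mesoderm and blood. H3K4me3 was at all 6 (*Tal1*, *Kdr*, *Lmo2*, *Etv2*, *Gata2* and *Pdgfra*) in both genotypes, as at 60.7% of all genes in WT and 60.3% in Delta. H3K27me3 was in both genotypes at all of them but *Etv2*. H2AK119ub was at *Gata2* in both genotypes and at *Pdgfra* in WT alone. The H3K27ac call was at *Tal1*, *Lmo2* and *Gata2* in WT alone and at *Kdr*, *Etv2* and *Pdgfra* in neither. The deletion within *Scl* cannot be read from a peak list.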

How the data were processed

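Histone marks were measured by ChIP-Rx, with *Drosophila* S2 cells as a spike-in, in mCherry-positive cells of day 4 EBs. According to the study's methods, the authors aligned paired-end reads to mm9 and dm3 with Bowtie, removed duplicates and called broad peaks with MACS2 2.0.10 in each library against the input of its genotype. The spike-in scaled tag densities and not peaks. The deposited lists give a fold enrichment and −log10 p and q values by the authors. Their score column was not used. The −log10 q was 1.32 or more in the Delta H3K27ac list. The study gives the read depth of each library, but the lists hold no counts per peak, so no value was adjusted for depth, and its part in calls made in 1 list only was not tested.

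The members and gene lists were chosen with earlier results of these data known. Groups were taken from the sample titles. TSSs of 22359 protein-coding genes were taken from GENCODE M1 on NCBIM37 (mm9). A gene had a mark where a peak came within 2500 bp of a TSS, and peaks overlapped from 1 bp. Where several peaks of a list overlapped a member, the longest and the highest value were used. Midpoints were assigned to UTR, coding sequence, other exon, intron or outside genes, in that order. Named genes were the 6 highest by fold enrichment, the 4 longest, those highest in each state of the other marks, all list members up to 6 (otherwise the 6 highest), and those nearest each limit. The genes in long H3K27me3 peaks, and those named from a list beyond this rule, were chosen after their values were seen. Differences of shares have Newcombe intervals and those between genotypes at the same peaks an interval for paired shares. With 1 library per group no test was made. Alternatives were the −log10 q, the TSS distance, the definition of a counterpart and a fixed window. Overlap code was tested on simulated peaks and checked against bedtools 2.31.1 in 7 comparisons, which differed by 0 peaks. Python 3.11.15, pandas 2.3.3 and numpy 2.4.6 were used. Results for a few genes are not reported here.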

Additional observations from a re-analysis of the deposited data

How the results depend on the processing

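The settings that combine a −log10 q under 3 with 500 bp, limit H3K27me3 peaks by q, or leave out chromosomes 1, 8 and X were chosen after seeing the data. Of 89 values, 68 lay inside the 95% interval of the reported value, or for numbers inside a factor of 1.5, and 21 lay outside. The sign turned in 1, the difference from shared peaks for H2AK119ub in Delta, which was 0.133 points with an interval that included 0 and became -0.0909 points at a −log10 q of at least 3. No paired analysis was possible because each group had 1 library. Causes were not tested.

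Of peaks whose −log10 q reached 3, 414 Delta-only peaks (15.8% of Delta promoter peaks) and 448 genes were left, fewer by construction. The difference from shared peaks became -1.09 points for H3K4me3 in WT, -1.18 for H3K4me3 in Delta and -31.6 for H3K27me3 in WT. Delta minus WT became 0 points for H3K4me3 and 8.70 for H3K27me3. With a −log10 q under 3 the Delta-only share was 50.4%, and the H3K27me3 differences were -18.6 (WT) and -4.77 points (Delta). With 500 bp as well they were -16.6 and -3.48, with 500 bp alone -23.4 in WT, and with H3K27me3 peaks of −log10 q of at least 3 they were -15.0 and -6.21. At a TSS distance of 1000 bp the H3K4me3 differences were -2.54 (WT) and -1.80 (Delta). Counting a WT peak within 1000 bp as a counterpart gave a Delta-only share of 28.9%. Requiring 50% coverage gave 42.9% and an H3K27me3 difference in Delta of -10.3. Weak calls and lists without read counts limit what the absence of a WT peak shows.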

Other observations

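Members were spread over the autosomes, where 1344 of 4466 Delta promoter H3K27ac peaks were Delta-only (30.1%, 28.8 to 31.5), with 25.5% to 35.4% on single autosomes. On chromosome X 26 of 43 were (60.5%, 45.6 to 73.6). The WT list had 26 promoter H3K27ac peaks on X, 9 of them WT-only. The 26 members on X had a median −log10 q of 2.25, and 24 of them carried H3K4me3 in both genotypes. The H3K4me3 lists held 474 peaks on X in WT and 456 in Delta, and the H3K27me3 lists 161 and 147. One of the X members is at *Rbbp7*, which encodes a histone-binding subunit of PRC2. Its −log10 q was 1.33, at the lower end of the members, and no H3K4me3 peak of either list overlapped it. The contrast between X and the autosomes was noticed after the data were seen and was not tested.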
